A study of Mus musculus with 4 samples.

Results

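The muscle fate genes described here are 10 mouse genes: Myod1, Myf5, Myf6, Myog, Pax3, Pax7, Mef2c, Des, Ckm and Acta1. They were chosen because C3H10T1/2, the cell line of the study, is known to turn into muscle when its DNA loses methylation. Their entries were found by Ensembl identifier among the promoter, 5′ UTR, exon, intron and 3′ UTR levels, and CpG islands and island shores that overlap a gene were added. Of the 10 genes, 9 had an entry, among 28883 genes with any entry. They hold 59 regions, of which 57 had a level in all 4 libraries, out of 106689 such regions in the same 7 classes. The 57 regions are 32 gene entries, 10 islands and 15 shores.

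C3H10T1/2 is a line from mouse embryos of the C3H strain with properties of mesenchymal stem cells (MSCs), and every library comes from it. Cells were transfected for 48 h with a non-targeting siRNA (NC) or with siRNA against the maintenance DNA methyltransferase DNMT1 (siDNMT1). They were then left uninduced or were induced towards osteoblasts (OB) for 3 days in 50 µM ascorbic acid, 10 mM β-glycerophosphate and 0.001 µM dexamethasone. Each of the 4 conditions is 1 library of reduced representation bisulfite sequencing, which reads the fraction of methylated cytosines, called the methylation level here, from 0 to 1. With 1 library per condition there is no replicate check, no test and no error for any difference, and the files carry no read counts, so the depth behind a level is unknown. The libraries list between 155398 and 159705 regions. The files hold no expression values, so neither the loss of Dnmt1 nor the activity of any muscle gene is measured here. Transient siRNA lowers an enzyme without removing it, and the residual amount was not analysed here.

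Muscle identity is set by a small number of transcription factors. Pax3 and Pax7 mark muscle precursors, Myf5 and Myod1 commit a cell to the muscle line, Myog drives the fusion into fibres, Myf6 acts with and after it, and Mef2c assists them. Des, Ckm and Acta1 encode the structural and metabolic products of the fibre. C3H10T1/2 is the line in which Myod1 was first isolated, after cells treated with a demethylating drug became muscle. CpG islands at the starts of active or poised genes are in general free of methylation.

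The sequences that go with the levels show how differently the starts of these genes are built. They were read 5′ to 3′ on the strand of the gene with every CpG in capitals, since a CpG is the site at which the methylation level is read. The promoters are the 250 bases before the RefSeq start (GRCm38.p6), where 7 of the 10 genes matched. Des and Acta1, 2 fibre genes with high promoter levels, are shown beside Myog and Myf5, for which no promoter level was listed.
Des promoter, chr1:75360042-75360291, plus strand, 10 CpGs: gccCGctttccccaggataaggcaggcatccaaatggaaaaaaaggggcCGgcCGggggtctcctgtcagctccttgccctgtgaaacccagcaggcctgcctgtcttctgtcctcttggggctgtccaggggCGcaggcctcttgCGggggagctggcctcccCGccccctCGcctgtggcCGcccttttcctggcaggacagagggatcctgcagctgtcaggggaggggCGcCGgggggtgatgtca
Acta1 promoter, chr8:123894776-123895025, minus strand, 9 CpGs: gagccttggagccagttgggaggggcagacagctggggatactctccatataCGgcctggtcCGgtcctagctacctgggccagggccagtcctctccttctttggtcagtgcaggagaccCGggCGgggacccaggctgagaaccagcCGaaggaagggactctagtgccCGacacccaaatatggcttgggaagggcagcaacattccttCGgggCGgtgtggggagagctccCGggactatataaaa
Myog promoter, chr1:134289754-134290003, plus strand, 7 CpGs: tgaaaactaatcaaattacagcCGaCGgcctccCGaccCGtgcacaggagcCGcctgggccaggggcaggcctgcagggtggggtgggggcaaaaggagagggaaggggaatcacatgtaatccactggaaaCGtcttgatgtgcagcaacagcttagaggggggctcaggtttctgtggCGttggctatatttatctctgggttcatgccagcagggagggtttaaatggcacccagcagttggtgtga
Myf5 promoter, chr10:107486135-107486384, minus strand, 3 CpGs: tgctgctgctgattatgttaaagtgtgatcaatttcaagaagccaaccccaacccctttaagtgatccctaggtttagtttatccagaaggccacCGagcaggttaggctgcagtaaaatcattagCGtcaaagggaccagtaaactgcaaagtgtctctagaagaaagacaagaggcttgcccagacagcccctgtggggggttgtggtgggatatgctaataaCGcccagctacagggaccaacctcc
The last 250 bases before the start of Myf5 thus hold 3 CpGs, against 10 at Des. The other matched genes, which all had a promoter level, are Pax7 with 13, Ckm with 6 and Mef2c with 1 to 6 across its starts. The Pax7 and Ckm stretches lie inside the annotated gene, outside the 2 kb window before its start. Their counts therefore do not bear on whether a promoter level was listed. Among the rest, Mef2c had a level with fewer CpGs at each start than the 7 of Myog, which had none listed. In these genes the count does not separate the promoters with a level from those without.

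Further stretches come from inside genes, read from GRCm38. The first is the 300 bases of the Myf5 introns that hold the most CpGs, shown because the Myf5 intron entry had the largest siDNMT1 difference among the muscle regions. The second is the 300 bases with the most CpGs in an intragenic island of Pax7, shown because it is the least methylated island of the set.
Myf5 intron, chr10:107484725-107485024, minus strand, 10 CpGs: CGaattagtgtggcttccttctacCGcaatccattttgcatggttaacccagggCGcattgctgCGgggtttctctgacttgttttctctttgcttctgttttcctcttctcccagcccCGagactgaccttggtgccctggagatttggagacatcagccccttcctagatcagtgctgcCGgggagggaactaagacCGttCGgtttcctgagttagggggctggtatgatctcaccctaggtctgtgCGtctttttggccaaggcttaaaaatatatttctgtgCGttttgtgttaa
Pax7 island, chr4:139828257-139828556, minus strand, 33 CpGs: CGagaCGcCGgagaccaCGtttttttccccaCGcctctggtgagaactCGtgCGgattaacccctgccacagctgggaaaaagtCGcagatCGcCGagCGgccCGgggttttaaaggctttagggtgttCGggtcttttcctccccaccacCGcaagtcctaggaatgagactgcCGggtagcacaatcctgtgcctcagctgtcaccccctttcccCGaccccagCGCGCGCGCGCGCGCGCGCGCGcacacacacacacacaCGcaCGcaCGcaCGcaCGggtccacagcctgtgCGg
The Pax7 stretch is intronic, and part of its 33 CpGs lie in a run of CG repeats. A repeat of this kind is hard to align, and its share in the island's level was not tested.

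Myod1 (ENSMUSG00000009471, chr7:46376474-46379099, plus strand), the factor that can convert other cells to muscle, was methylated at an intermediate level in every class. Its promoter level, over the 2 kb before the start, was 0.346 in NC, 0.283 in siDNMT1, 0.307 in NC OB and 0.302 in siDNMT1 OB. The NC uninduced library was thus the highest, and the other libraries lay within a narrow band. The promoter level differed by -0.0631 with siDNMT1 before induction and by -0.00579 after it, neither of which reached 0.1, the difference from which a region was counted as changed.

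The 5′ UTR of Myod1 had levels of 0.230 in NC, 0.220 in siDNMT1, 0.177 in NC OB and 0.218 in siDNMT1 OB, so NC OB was the low library. Its exons had 0.287, 0.277, 0.252 and 0.247 in the same order, with both OB libraries below both uninduced ones. The island over the first exon of Myod1 (chr7:46376686-46377277, 592 bases, all exonic) had 0.305, 0.294, 0.274 and 0.258, again with both OB libraries lower. The shore before it (chr7:46374685-46376684), which covers most of the promoter window, had 0.286, 0.250, 0.239 and 0.257. All 5 Myod1 regions were lower in siDNMT1 than in NC before induction, with differences from -0.0631 to -0.00946, and 3 of 5 were lower after it, where 54.6% and 65.7% of all regions were lower. No intron or 3′ UTR entry was listed for Myod1.

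The Myod1 island was more methylated than most islands at gene starts. Among 10128 islands within 1000 bases of a protein-coding start, the median of the mean level over the 4 libraries was 0.0214, 73.1% were below 0.1 and 19.7% were at 0.2 or above. Myod1, at a mean of 0.283, stood at the 84.9th percentile. The start island of Pax3, at 0.329, stood at the 87.4th percentile, that of Pax7, at 0.158, at the 77.6th, and that of Des, at 0.766, at the 98.5th. None of these 4 start islands was among the 73.1% below 0.1. For the muscle genes only islands that overlap the gene body were ranked. An island before the Ckm start (chr7:19403647-19404283), also within 1000 bases of it, was therefore left out. It had 0.165 in NC, 0.171 in siDNMT1, 0.122 in NC OB and 0.126 in siDNMT1 OB.

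The genes whose levels were most like those of Myod1 were sought over 12 levels, those of promoter, 5′ UTR and exons in 4 libraries, among 10609 genes. They were Hoxb13, with a mean absolute difference of 0.0192 from Myod1, Spint1 (0.0216), Csmd1 (0.0220), Zic4 (0.0238) and Tub (0.0239). Hoxb13, a posterior homeobox gene, had promoter levels of 0.342, 0.347, 0.314 and 0.297 in NC, siDNMT1, NC OB and siDNMT1 OB. Its siDNMT1 library was thus not below its NC library before induction, in contrast to the Myod1 promoter, and the same held for the Csmd1 promoter. The promoters of Spint1, Zic4 and Tub were lower in siDNMT1 than in NC before induction, as that of Myod1 was.

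Myf5 (ENSMUSG00000000435, chr10:107482908-107486134, minus strand) is the earliest of the commitment factors to be expressed in the embryo, and it lies beside Myf6 on the chromosome. Its exon level was 0.607 in NC, 0.600 in siDNMT1, 0.597 in NC OB and 0.550 in siDNMT1 OB, lowest in the library with both treatments. Its intron level was 0.392, 0.285, 0.369 and 0.329, so both siDNMT1 libraries were below both NC libraries. The intron difference of -0.107 before induction was the only one of 57 muscle regions lower by at least 0.1 in that comparison, where 0.769% of all intron entries were as much lower. After induction the intron difference was -0.0406. The entry rests on few sites at most: the introns, of 435 and 709 bases, hold 8 and 13 CpGs in the genome, 21 in all, and how many of them were read is unknown. A 5′ UTR level for Myf5, 0.867, was listed in the siDNMT1 uninduced library alone.

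Myf6 (ENSMUSG00000035923, chr10:107492853-107494737, minus strand), the factor most abundant in adult fibres, had no entry of any class in any library. Its 2 kb promoter window holds 17 CpGs, and of genes with 10 to 19 CpGs in that window 31.6% had a promoter level in all 4 libraries. The Myog window holds 23 CpGs, in a class of 20 to 29 where 60.1% were listed. The Myf5 window holds 36, in a class of 30 to 39 where 79.1% were listed. The windows of Myod1 (31 CpGs), Pax7 (37) and Acta1 (39) are in that same class and all 3 had a level. Mef2c had one with 14, Pax3 and Des had one with 42 and 45, where 89.2% of genes of 40 to 59 CpGs did, and Ckm had one with 83, where 96.0% of genes of 60 or more did.

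Myog (ENSMUSG00000026459, chr1:134289989-134292548, plus strand), needed for muscle precursors to become fibres, had close levels in all libraries. Its exons had 0.473 in NC, 0.505 in siDNMT1, 0.499 in NC OB and 0.503 in siDNMT1 OB, so NC was the lowest. Its introns, which hold only 9 CpGs in the genome, had 0.418, 0.408, 0.390 and 0.383, with both OB libraries lower. Its 3′ UTR had 0.357, 0.379, 0.375 and 0.370. No Myog difference in any of the 4 comparisons exceeded 0.0318 in size.

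**Figure D1:**
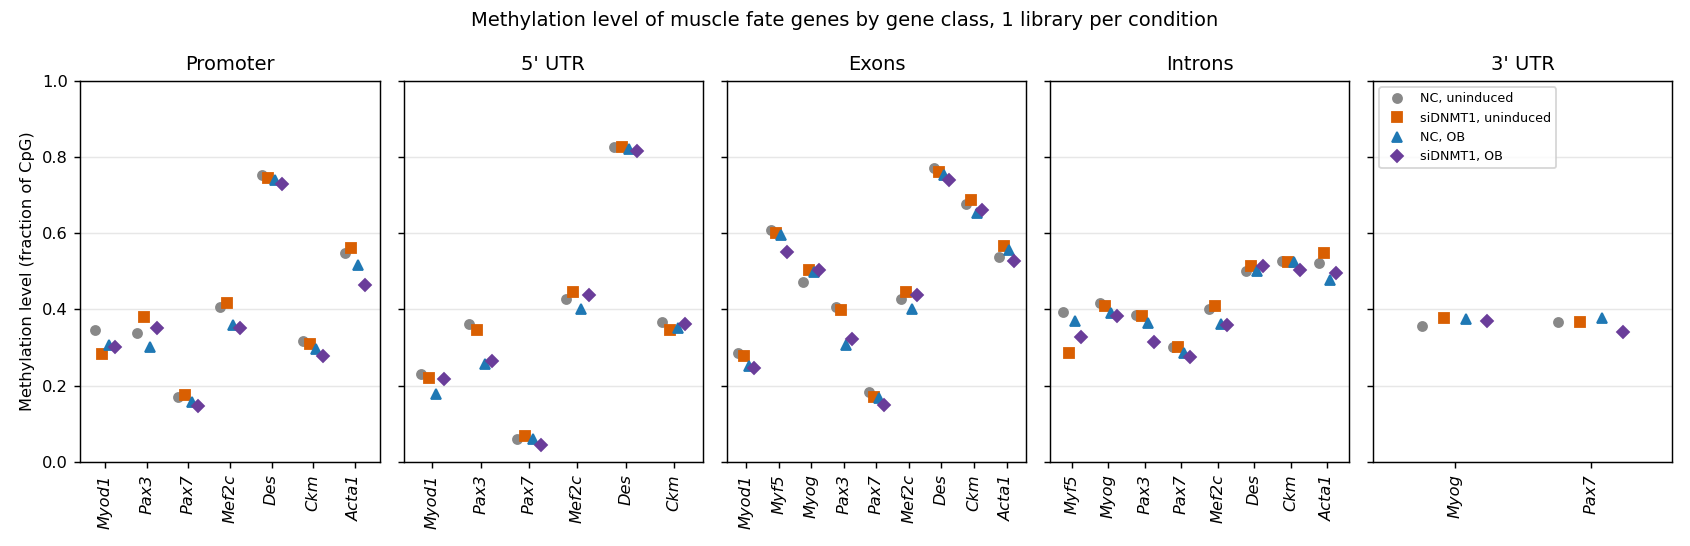
Methylation level (fraction of CpG, y axis) of each muscle fate gene (x axis) in each gene class (panels), with 1 point per library and no replicates. Des stands highest among promoters and 5′ UTRs, Pax7 lowest, and the libraries of a gene lie closer to each other than most genes do.

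Pax3 (ENSMUSG00000004872, chr1:78101267-78197134, minus strand), a paired-box factor of migrating muscle precursors and of the neural crest, held the largest single difference between OB and uninduced libraries in each siRNA arm. The exon level was 0.407 in NC, 0.398 in siDNMT1, 0.306 in NC OB and 0.322 in siDNMT1 OB. The 5′ UTR level was 0.362, 0.346, 0.256 and 0.265, and that of the start island (chr1:78196632-78197287, of which 470 of 656 bases are exonic) was 0.373, 0.365, 0.281 and 0.298. In these 3 entries, which share cytosines, both OB libraries were below both uninduced libraries, while NC and siDNMT1 were close.

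From uninduced to OB with NC, the 5′ UTR of Pax3 fell by 0.106 and its exons fell by 0.101, the only 2 of 57 muscle regions lower by at least 0.1 there. A decrease of at least 0.1 was seen in 1.55% of all 5′ UTR entries and 1.37% of all exon entries. These shares are not matched for level. The median over all 5′ UTR entries in NC was 0.0286, so most of them could not fall by 0.1. With siDNMT1 the corresponding differences were -0.0819 and -0.0758. The start island differed by -0.0919 with NC and by -0.0671 with siDNMT1.

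The other Pax3 regions were also lower in OB. Its promoter had 0.338, 0.380, 0.301 and 0.352, higher in siDNMT1 than in NC both before and after induction (by 0.0428 and 0.0506). Its introns had 0.386, 0.384, 0.365 and 0.315, and the intronic island centred 7436 bases into the gene (chr1:78189566-78189829) had 0.295, 0.304, 0.259 and 0.235. The shore behind the start island (chr1:78194631-78196630) had 0.381, 0.431, 0.346 and 0.322. Between the siDNMT1 libraries this shore was 0.109 lower in OB. It was the only muscle region lower by at least 0.1 there, where 3.58% of all shores were. All 7 Pax3 regions were lower in OB than in uninduced cells in both siRNA arms, with medians of -0.0365 with NC and -0.0697 with siDNMT1, where 63.4% and 73.4% of all regions were lower. A further shore of Pax3 had a level, 0.611, in NC alone.

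Pax7 (ENSMUSG00000028736, chr4:139737062-139833528, minus strand), the paired-box factor of muscle stem cells, had the most regions, 15, and the lowest promoter and 5′ UTR levels of the set. The start island, 2040 bases long (chr4:139831506-139833545), had 0.168 in NC, 0.168 in siDNMT1, 0.156 in NC OB and 0.141 in siDNMT1 OB. The promoter had 0.169, 0.175, 0.156 and 0.147, and the 5′ UTR 0.0595, 0.0666, 0.0602 and 0.0429. In island and promoter the OB libraries were the lower, by less than 0.03 in either arm.

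Along the gene, Pax7 islands differed from each other far more than the libraries did. The island centred 5160 bases into the gene (chr4:139828039-139828698), whose CpG-rich stretch is printed above, had 0.0356, 0.0463, 0.0288 and 0.0285. The shore behind it (chr4:139826038-139828037) had 0.0542, 0.0368, 0.0363 and 0.0556. The next islands, centred 9608 and 12006 bases into the gene and wholly intronic, stood far above it. They had 0.370, 0.368, 0.363 and 0.342 (chr4:139823598-139824241) and 0.393, 0.394, 0.357 and 0.335 (chr4:139821150-139821893). Exons of Pax7 had 0.182, 0.170, 0.166 and 0.150, introns 0.300, 0.302, 0.286 and 0.276, and the 3′ UTR 0.367, 0.368, 0.379 and 0.340. The remaining 5 shores lay between 0.165 and 0.383 in every library.

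**Figure D2:**
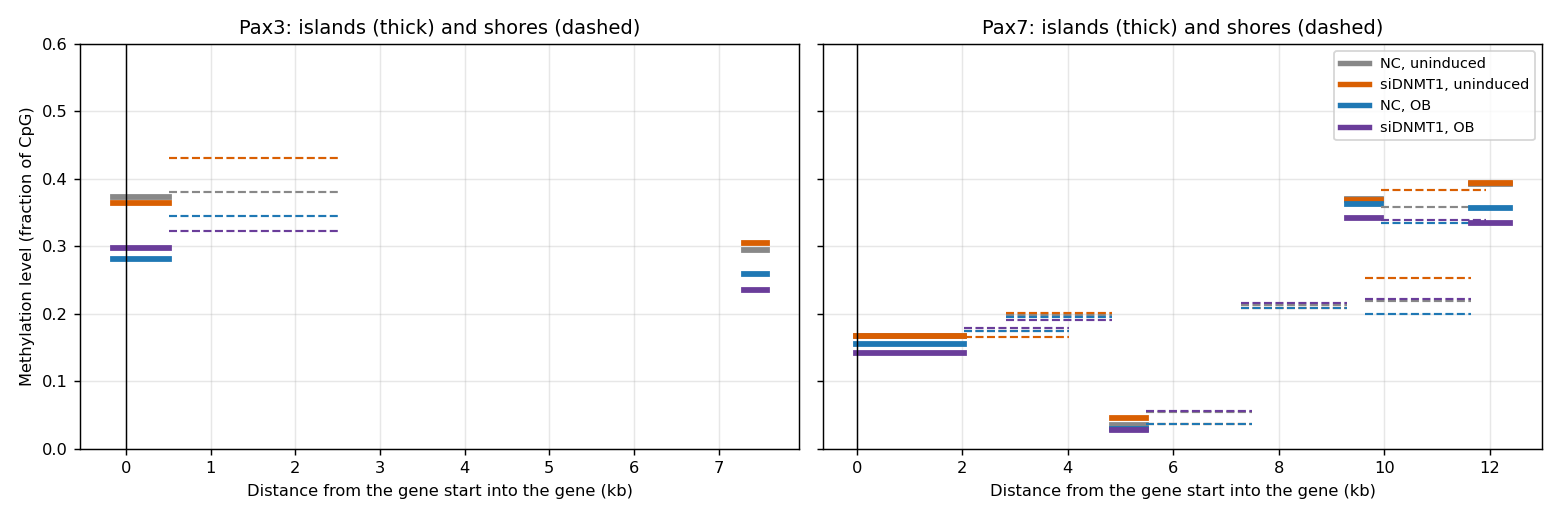
Methylation level (fraction of CpG, y axis) of the islands (thick lines) and shores (dashed lines) of Pax3 and Pax7 against distance from the gene start into the gene (kb, x axis), 1 colour per library, where the Pax7 shores overlap each other and neighbouring islands. At Pax3 the OB libraries lie below the uninduced ones in all 3 regions, and at Pax7 the island centred 5160 bases from the start lies below 0.05 while the next 2 islands lie above 0.3.

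Mef2c (ENSMUSG00000005583, chr13:83504034-83667080, plus strand), the MADS-box cofactor of the myogenic factors that is also used in heart, bone and brain, had intermediate levels. Its promoter had 0.407 in NC, 0.416 in siDNMT1, 0.358 in NC OB and 0.351 in siDNMT1 OB, and its introns 0.401, 0.408, 0.361 and 0.358. Its intronic island (chr13:83523649-83523957) had 0.420, 0.428, 0.367 and 0.342, so in all 3 both OB libraries were below both uninduced ones. The exon and 5′ UTR entries were identical in every library, at 0.427, 0.446, 0.402 and 0.438. They are in effect 1 measurement, but both are kept among the 57 regions and in every count and median over them.

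The shores on either side of the Mef2c island differed from each other more than any of the conditions did. The shore before it (chr13:83521648-83523647) had 0.803, 0.784, 0.809 and 0.717, and the shore behind it (chr13:83523958-83525958) had 0.0173, 0.0147, 0.0221 and 0.0299. The upstream shore fell by 0.0919 with siDNMT1 after induction, the largest decrease among the muscle regions in that comparison, against -0.0187 before induction. Its 2000 bases hold only 15 CpGs, and how many of them were read is unknown. RefSeq gives Mef2c several starts, 1 of them at the island, so which start the promoter entry refers to is uncertain.

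Des (ENSMUSG00000026208, chr1:75360329-75368579, plus strand) encodes desmin, the intermediate filament of muscle. Among entries with a level in all 4 libraries, Des had the highest promoter, 5′ UTR, exon and island levels of the set. Its promoter had 0.753 in NC, 0.745 in siDNMT1, 0.739 in NC OB and 0.729 in siDNMT1 OB. Its 5′ UTR had 0.826, 0.827, 0.821 and 0.816, its exons 0.771, 0.762, 0.754 and 0.740, and its start island (chr1:75360356-75360970, all exonic) 0.782, 0.771, 0.762 and 0.750. The 4 conditions spanned less than 0.04 in each of these entries. Des introns had 0.501, 0.513, 0.501 and 0.514, the shore before the island 0.701, 0.689, 0.710 and 0.672, and the shore behind it 0.452, 0.458, 0.470 and 0.483.

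Ckm (ENSMUSG00000030399, chr7:19404776-19422841, plus strand), the muscle creatine kinase, had a promoter level of 0.318 in NC, 0.308 in siDNMT1, 0.297 in NC OB and 0.277 in siDNMT1 OB. That window, with 83 CpGs, takes in an island (chr7:19403647-19404283) which had 0.165, 0.171, 0.122 and 0.126, lower in both OB libraries. The RefSeq start lies inside this gene model, after chr7:19410844-19411093, so the promoter entry need not describe the muscle start. Ckm exons had 0.677, 0.688, 0.652 and 0.662, its 5′ UTR 0.366, 0.346, 0.350 and 0.362, and its introns 0.526, 0.526, 0.524 and 0.502. The shore at its first exon had 0.559, 0.556, 0.598 and 0.567, and that near its end 0.432, 0.422, 0.399 and 0.405. No Ckm difference exceeded 0.0397 in size.

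Acta1 (ENSMUSG00000031972, chr8:123891769-123894751, minus strand), the skeletal muscle actin of the thin filament, had a promoter level of 0.547 in NC, 0.561 in siDNMT1, 0.517 in NC OB and 0.463 in siDNMT1 OB. The library with both treatments was the lowest: the siDNMT1 difference was 0.0134 before induction and -0.0541 after it. Exons had 0.537, 0.567, 0.556 and 0.526, introns 0.523, 0.549, 0.477 and 0.496, the island towards the end of the gene 0.497, 0.508, 0.447 and 0.466, and the shore 0.622, 0.685, 0.658 and 0.628. All 5 Acta1 regions were higher in siDNMT1 than in NC before induction, by 0.0103 to 0.0630, and 3 of 5 were lower after it, where 54.6% and 65.7% of all regions were lower. Between the siDNMT1 libraries all 5 were lower in OB, as 73.4% of all regions were, with a median difference of -0.0527, and the promoter fell by 0.0977.

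The first comparison asked whether lowering DNMT1 changes methylation before OB induction. Of the 57 muscle regions, 1 was lower in siDNMT1 than in NC by at least 0.1, against 0.774% of all regions, and 0 were higher by that much, against 0.682%. At 0.05 there were 2 lower, against 3.56%. Lower by any amount were 28 of 57, or 49.1%, against 54.6% of all regions. Over the 53 muscle regions with a mean level of at least 0.1, which can fall as well as rise, 26 were lower, or 49.1%, against 61.6%. The median difference was 4.7e-05 over the muscle regions and -0.00115 over all regions. The 57 regions are not independent, since promoters, exons, islands and shores of a gene share cytosines.

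The second comparison put the same question to OB cells. In OB, 0 of 57 muscle regions were lower in siDNMT1 by at least 0.1, against 1.35%, and 0 were higher, against 0.679%. At 0.05, 2 were lower, the Mef2c shore and the Acta1 promoter, against 7.06% of all regions. Lower by any amount were 35 of 57, or 61.4%, against 65.7%, and 33 of the 53 at a mean level of at least 0.1, or 62.3%, against 74.5%. The median difference was -0.00579 over the muscle regions and -0.00511 over all.

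The remaining comparisons set OB against uninduced libraries with each siRNA, and they share their libraries with the first and second. No uninduced library is described as kept for the same 3 days. Induction and added time in culture therefore cannot be told apart in these differences. With NC, 2 muscle regions were lower in OB by at least 0.1, both in Pax3, against 1.37% of all regions, and 0 were higher, against 0.753%. At 0.05, 6 were lower (10.5%), against 7.24%. Lower by any amount were 45 of 57 (78.9%), against 63.4%, and at a mean level of at least 0.1 they were 43 of 53 (81.1%), against 62.7%. With siDNMT1, 1 was lower by at least 0.1, the Pax3 shore, against 2.41%, and 0 were higher, against 0.866%. At 0.05, 13 were lower (22.8%), against 11.8%. Lower by any amount were 46 of 57 (80.7%), against 73.4%, and at a mean level of at least 0.1 they were 44 of 53 (83.0%), against 74.5%. The median OB difference over the muscle regions was -0.0204 with NC and -0.0259 with siDNMT1, against -0.00363 and -0.00808 over all regions. Only 66281 of all 106689 regions, but 53 of the 57 muscle regions, had a mean level of at least 0.1. Regions with low levels have little room to fall, so these medians and the shares at 0.05 are not matched for level. Several of the 13 regions were Pax3 entries, some of which share cytosines.

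The OB decrease was most uniform in the islands. All 10 muscle islands were lower in OB than in uninduced cells in both siRNA arms, with differences from -0.0919 to -0.00623 with NC and from -0.0857 to -0.0178 with siDNMT1. For the 9 with a mean level of at least 0.1, this stands beside 78.2% of all islands of that level with NC and 85.8% with siDNMT1, so most islands at these levels were lower too. All 7 promoters were lower in OB with NC, against 60.7% of promoters at a mean level of at least 0.1, and 6 of 7 with siDNMT1, against 72.8%. The exception was Myod1, whose promoter was 0.0187 higher in siDNMT1 OB than in siDNMT1. Of the shores, 8 of 15 (53.3%) were lower in OB in each arm, against 64.5% of all shores with NC and 74.5% with siDNMT1.

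**Figure D3:**
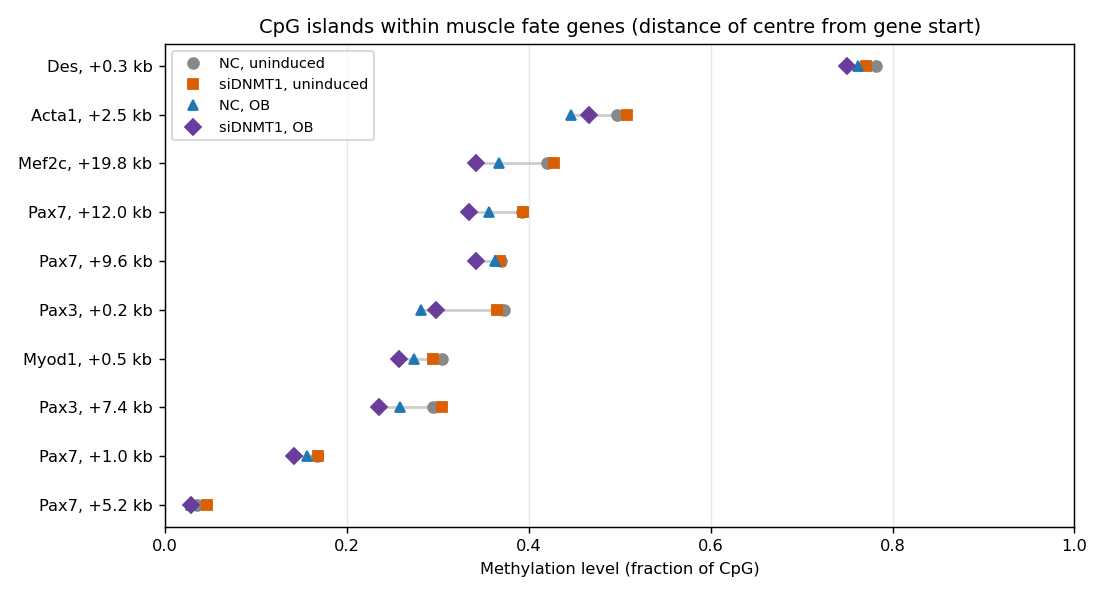
Methylation level (fraction of CpG, x axis) of the 10 islands within muscle fate genes (y axis, with the distance of the island's centre from the gene start), 1 symbol per library and a grey line over the range of the 4. Every island has both OB libraries below both uninduced ones, from Pax7 below 0.05 to Des above 0.7.

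**Figure D4:**
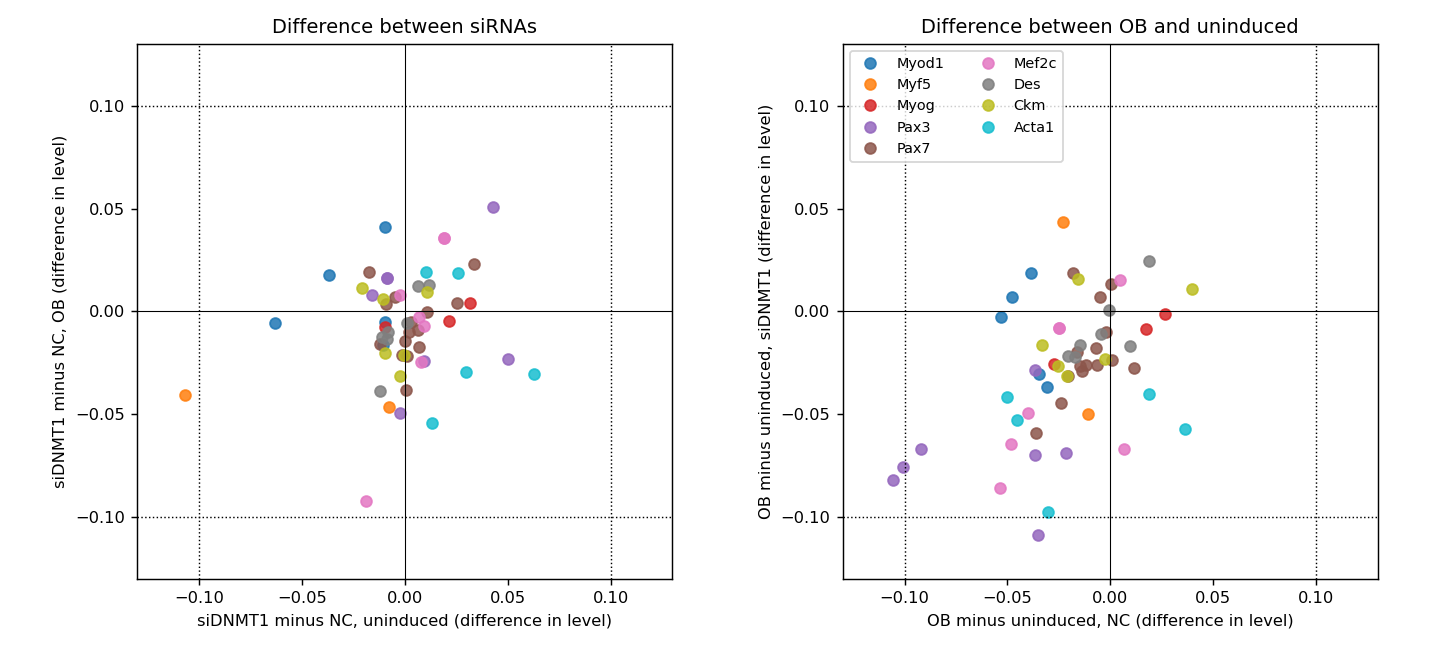
Differences in methylation level for the 57 muscle regions, 1 point each and coloured by gene: siDNMT1 minus NC in uninduced (x axis) and OB cells (y axis) on the left, and OB minus uninduced with NC (x axis) and siDNMT1 (y axis) on the right, with dotted lines at 0.1 either way. On the left 1 point, the Myf5 introns, lies past a dotted line, and on the right the 3 past one are all Pax3. The axes of each panel use different libraries, but the panels share all 4.

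Wider lists of muscle genes, chosen with earlier results known, placed these promoters among others. Of 25 further myogenic regulators, 19 had a promoter level in all 4 libraries, with a median mean level of 0.0387, against 0.343 for the 7 muscle fate promoters and 0.180 for all promoters. None of the 19 differed by 0.1 between siDNMT1 and NC in either state, where 0.814% of all promoters were lower and 0.670% higher before induction, and 1.40% and 0.789% after it. Of 37 contractile and metabolic muscle genes, 23 had a promoter level, with a median of 0.447. In that list 1 promoter was lower by at least 0.1 after induction, that of Chrng, the fetal subunit of the acetylcholine receptor, at 0.495 in NC OB and 0.333 in siDNMT1 OB. The median siDNMT1 differences were -0.00116 before and 6.2e-05 after induction for the regulators and -0.00596 and -0.00883 for the contractile genes.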

How the data were processed

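Reduced representation bisulfite sequencing of 4 C3H10T1/2 libraries was used. The methods describe sonication and name no restriction enzyme. Trimmomatic (0.36) was used for read filtering and Bismark (0.16.3) for alignment, with mm10 as reference, and the authors deposited the fraction of methylated CpG per region and library. The promoter was defined as the 2 kb upstream of the start. The coverage minimum and the weighting of cytosines within a region are not given in the sources used here, so depth is unknown and no interval was computed. PCR copies and incomplete conversion could also shift a level.

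Genes were matched by Ensembl identifier to GENCODE vM21 (GRCm38). Islands and shores were assigned where they overlapped the gene body, with positions counted from 1. All 14354 islands checked start and end with CG on this build. Differences were subtractions of levels over regions with 4 levels. The minimum for a change was 0.1. Means are over the 4 libraries. With 1 library per condition no test was run. The counting of changed regions was tried on NC promoter levels to which known shifts had been added. The other steps were not tested in this way.

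The genes named are all 10 members, list promoters that changed by at least 0.1 with siDNMT1, at most 6 per list, and the 5 genes with the smallest mean absolute difference from Myod1. That search was planned over all gene classes but used 12 levels, since no intron or 3′ UTR entry was listed for Myod1. The lists cover myogenic regulators, contractile and metabolic, smooth muscle, osteoblast, chondrocyte and adipocyte genes. Members and lists were chosen with earlier results of these data known. Promoter sequences came from RefSeq (GRCm38.p6). Python 3.11.15, pandas 2.3.3, numpy 2.4.6 and matplotlib 3.10.9 were used. Alternatives covered the threshold, centring of libraries, region class, island assignment and measure of likeness.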

Additional observations from a re-analysis of the deposited data

Results flagged for a closer look

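Of the 57 muscle regions, 6 (10.5%) had siDNMT1 differences of opposite sign in uninduced and OB cells that lay at least 0.05 apart, as did 9.24% of all 106689 regions. With 1 library per condition the difference between the states was not tested. At Myod1 the 5′ UTR differed by -0.00946 before and 0.0410 after induction, and the shore by -0.0369 and 0.0179. At Pax3 the shore behind the start island differed by 0.0502 and -0.0232. At Acta1 the promoter differed by 0.0134 and -0.0541, the exons by 0.0296 and -0.0296, and the shore by 0.0630 and -0.0303. These Acta1 entries lie in or beside 1 gene and are not independent.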

How the results depend on the processing

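A count or median was taken as moved where it differed by over 1.5 times or changed sign. Of 35 alternatives, 18 kept the value and 17 moved it. At a threshold of 0.05, 2 regions were lower and 2 higher with siDNMT1 before induction, and 2 lower and 1 higher after it. At 0.2, 0 were lower before induction. The median over promoters, 0.00631 before induction, became 0.0096 with libraries centred on their promoter medians, and -0.00761 over exons, 0.000716 over introns, -0.00434 over 5′ UTRs and 0.011 over 3′ UTRs. After induction it was -0.00903, and 0.001 when centred, -0.00536 over exons, 0.00968 over 5′ UTRs and -0.0214 over 3′ UTRs. The Myod1 promoter difference after induction, -0.00579, was 0.00425 when centred. Extending genes by 10 kb raised the islands and shores assigned from 26 to 41. Euclidean distance kept 3 of the 5 genes most like Myod1. The cause was not tested. No paired analysis was possible because each condition is 1 library. Unknown depth limits every level, most for entries with few CpGs such as the introns of Myf5 and Myog and the upstream Mef2c shore.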

Other observations

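Promoters of other lineages stood at their own levels. Of 9 osteoblast genes 5 had a promoter level in all 4 libraries, with a median mean level of 0.125, of 8 adipocyte genes 5 did, with 0.115, of 7 chondrocyte genes 6 did, with 0.306, and of 7 smooth muscle genes 5 did, with 0.431. In these lists 0 promoters differed by 0.1 between siDNMT1 and NC in either state, where 0.814% of all promoters were lower and 0.670% higher before induction, and 1.40% and 0.789% after it, so a count of 0 in so few promoters is near the background. The median siDNMT1 difference before and after induction was -0.0199 and -0.0132 for osteoblast genes, -0.00412 and -0.00107 for adipocyte genes, 0.00721 and -0.00159 for chondrocyte genes, and -0.0259 and -0.0272 for smooth muscle genes. With 5 or 6 promoters per list and no replicates, these are descriptions of the libraries. Methylation levels do not give the expression of these genes.

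Beyond the gene bodies, an island within 10 kb of Myog (chr1:134298896-134299450) had 0.538 in NC, 0.493 in siDNMT1, 0.517 in NC OB and 0.541 in siDNMT1 OB, and islands past the end of Ckm (chr7:19426053-19426334 and chr7:19429374-19429601) stayed between 0.822 and 0.855 in every library.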
